A study of Homo sapiens with 4 samples.

Results

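The zinc finger genes described here are those of the 19p12 cluster, on the short arm of human chromosome 19, next to the centromere. Below, 19p12 names this set of genes, and whether each of them lies within that cytogenetic band was not checked. A list of 36 gene symbols defined the cluster, and a probe belonged to a gene when its RefSeq transcript accession led to that symbol. By this rule 34 of the 36 genes had a probe, out of 25006 genes named on the array, and ZNF506 and ZNF98 had none. The 34 genes had 52 probes, and 13 of them had more than 1 probe. The probe with the highest mean signal over the 4 arrays stood for each gene. All 36 symbols lay on chromosome 19 in the RefSeq gene table.

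The cells were HML58-3, a derivative of the colon cancer line HCT116 that carries a luciferase reporter behind a methylated marker promoter. The study compared decitabine (DAC), a nucleoside analogue that traps DNA methyltransferases and so causes DNA demethylation, with its prodrugs OR-2003 and OR-2100. Cells were treated with 1 µM of DAC, 1 µM of OR-2003, 1 µM of OR-2100 or mock on day 1, and RNA was collected on day 5. There was 1 array per condition, all from this single derivative line, so no test between conditions was possible. The 3 comparisons with mock share the 1 mock array, and an error on that array would enter all of them.

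Most members of this cluster encode proteins with a KRAB domain and a run of C2H2 zinc fingers. The fingers read DNA sequence, often within retroelements, and the KRAB domain recruits the corepressor TRIM28, which brings the histone methyltransferase SETDB1 and HP1 proteins and so sets up silent chromatin. The family grew in primates by tandem duplication, and 2 members of 19p12 are well known for their targets, since ZNF91 represses SVA elements and ZNF93 represses LINE elements.

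The promoter windows of most members resembled each other, and 6 of them are printed here to show the closest and the most distant. Each is the RefSeq window of 250 bases before the gene's start, on build GRCh38.p14, written on the strand of the gene, and capitals mark the word TCCAATCAGG (its first copy where a window holds more). ZNF101 and ZNF14, neighbours at the distal end of the cluster, had windows unlike those of the other members. ZNF486 and ZNF626, like ZNF714 and ZNF431, are the 2 pairs with the most similar windows. The windows were chr19:19668589-19668838 (plus strand), chr19:19733113-19733362 (minus strand), chr19:20166964-20167213 (plus), chr19:20661572-20661821 (minus), chr19:21081953-21082202 (plus) and chr19:21141790-21142039 (plus).
ZNF101: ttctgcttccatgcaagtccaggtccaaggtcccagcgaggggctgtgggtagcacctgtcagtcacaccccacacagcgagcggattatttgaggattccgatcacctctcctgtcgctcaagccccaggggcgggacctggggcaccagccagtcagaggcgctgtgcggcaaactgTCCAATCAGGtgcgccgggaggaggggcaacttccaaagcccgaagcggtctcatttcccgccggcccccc
ZNF14: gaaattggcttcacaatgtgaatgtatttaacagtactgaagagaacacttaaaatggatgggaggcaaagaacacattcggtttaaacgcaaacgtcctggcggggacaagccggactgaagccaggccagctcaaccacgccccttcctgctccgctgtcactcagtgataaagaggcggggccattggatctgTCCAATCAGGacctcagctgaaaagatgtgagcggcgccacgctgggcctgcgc
ZNF486: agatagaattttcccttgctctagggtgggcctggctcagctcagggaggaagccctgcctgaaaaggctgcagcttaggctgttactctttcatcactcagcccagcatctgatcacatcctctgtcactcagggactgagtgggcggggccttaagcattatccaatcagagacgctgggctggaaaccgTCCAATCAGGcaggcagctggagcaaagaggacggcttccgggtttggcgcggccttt
ZNF626: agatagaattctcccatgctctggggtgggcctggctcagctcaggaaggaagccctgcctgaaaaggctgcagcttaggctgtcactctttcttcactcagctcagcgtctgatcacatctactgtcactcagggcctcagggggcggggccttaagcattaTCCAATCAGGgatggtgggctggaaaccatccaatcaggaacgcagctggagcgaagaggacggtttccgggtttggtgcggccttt
ZNF714: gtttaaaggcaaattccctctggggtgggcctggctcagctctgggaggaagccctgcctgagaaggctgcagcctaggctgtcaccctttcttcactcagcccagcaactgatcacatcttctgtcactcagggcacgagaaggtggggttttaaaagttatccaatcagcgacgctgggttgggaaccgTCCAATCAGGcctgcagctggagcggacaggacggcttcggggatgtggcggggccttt
ZNF431: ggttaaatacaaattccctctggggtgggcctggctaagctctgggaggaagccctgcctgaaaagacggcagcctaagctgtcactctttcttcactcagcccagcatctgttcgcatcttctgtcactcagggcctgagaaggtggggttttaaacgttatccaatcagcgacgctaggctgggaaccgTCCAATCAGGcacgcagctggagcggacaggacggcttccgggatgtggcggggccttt

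The word TCCAATCAGG holds CCAAT, the sequence that the factor NF-Y binds. It was picked because it was the word of 10 letters held by the most member windows when all words were counted. It stood in 26 of the 29 windows found for 28 member genes, always on the strand of the gene, and began 30 to 88 bases before the start (median 58). Searched on both strands, it was held by 0.342% of all 35116 windows of the table and by 35 of 618 windows of other ZNF genes (5.7%). The windows without it belonged to ZNF493, to ZNF257 and to 1 of the 2 windows of ZNF682. A further word, CTGTCACTCA, was picked in the same way among words unlike the first. It stood in 22 of the 29 windows (75.9%), in 0.305% of all windows and in 3.4% of windows of other ZNF genes. Both words were chosen for their number in member windows, so a high share there follows in part from the choice. The shorter CCAATCA, which overlaps TCCAATCAGG, occurred at least 2 times on the gene's strand in 16 member windows and in 0.45% of all windows. The GC box GGGCGG stood in 21 of the 29 windows (72.4%) and in 42.6% of all windows. A match of letters is a description of the window and not a binding site.

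Member windows held few CG dinucleotides, the sites where DNA methylation is placed. They had 3 to 14 CG per window with a median of 8, against a median of 11 over all windows and 17.5 over windows of other ZNF genes. ZNF101 had the highest count, 14, and ZNF14 had 12. Over the 378 pairs of member genes the median identity of the windows was 78%. ZNF714 and ZNF431, which follow each other in the order of the members, shared 92% of their bases, and ZNF486 and ZNF626 shared 91.2%. The windows of ZNF101 and ZNF14 had at most 60.8% and 54% identity to any other member. Windows for 8 members (ZNF253, ZNF506, ZNF676, ZNF728, ZNF729, ZNF738, ZNF98 and ZNF99) were not analysed here.

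Levels below are log2 intensities scaled so that every array's 75th percentile over gene probes equals 0, and a difference is the level with a drug minus the level on the mock array. The array scanner's software marks a probe as well above background when its spot exceeds the local background clearly. By that mark 27 of the 34 genes were measured on all 4 arrays, 3 (ZNF682, ZNF431 and ZNF730) on some, and 4 (ZNF90, ZNF708, ZNF43 and ZNF681) on none. On the mock array 17 members reached a level of -1, the study's limit for positive expression. Every member probe was printed once per array. The only repeat measurement was the spread between spots of 300 other probes printed 10 times, whose median SD was 0.058 to 0.066 at levels of -1 or more and 0.163 to 0.213 for probes well above background but under -1. From the larger of these, the difference between single spots on separate arrays had an SD of 0.093 for the brighter probes and 0.301 for the dimmer ones. This covers spot noise only and not the variation between cultures. Members are similar in sequence, and cross-hybridisation between them was not tested.

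The treatment was visible in the genes that the study used as markers. UCHL1, a ubiquitin hydrolase, was at -6.42 on mock and not well above background, and at 6.61 with DAC, 6.77 with OR-2003 and 6.69 with OR-2100, at least 1910-fold, 2130-fold and 2010-fold higher. SFRP1, a secreted Wnt antagonist, was at -3.82 on mock and at -0.59, -0.71 and -0.43 with the drugs. The cells held colon epithelium markers, of which 10 of 12 were well above background on mock and 12 of 12 on each drug array. Their levels were not constant: with each drug EPCAM, CDH1, ELF3 and CLDN4 were called lower (EPCAM from 6.81 to 5.32, 5.29 and 5.36) and LGALS4 higher. Of the markers of other cell types, 6 of the 9 with a probe were well above background on mock, against 8 with DAC, 8 with OR-2003 and 9 with OR-2100. Their summed linear level was 5.51 on mock and 122 to 134 with the drugs, most of it from VIM (0.71 on mock and 6.84 to 6.98 with the drugs, as log2 levels). VWF was also called higher with each drug, with differences of 2.88 (DAC), 2.82 (OR-2003) and 2.92 (OR-2100). PECAM1 and COL1A2 were not well above background on mock, but were so with each drug. In the same order of drugs, PECAM1 was at -1.21, -1.13 and -1.11 and COL1A2 at -3.64, -3.28 and -3.45. COL1A1 and ACTA2 were higher with each drug by less than 2-fold. PDGFRB and PTPRC were lower than on mock with each drug (differences of -0.63, -0.29 and -1.08 for PDGFRB and of -0.31, -0.27 and -0.16 for PTPRC). Whether these shifts had any part in the values of the zinc finger genes was not tested. The slope of the spike-in controls was outside the software's accepted range on the mock array (0.899) and inside it on the drug arrays (0.913 to 0.955), and its part in the results was not tested.

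With DAC and with both prodrugs most members of the cluster were slightly higher than on the mock array, and ZNF101 alone passed the call of a 2-fold rise to a level of at least -1. The median difference of the 34 genes with a probe was 0.34 with DAC, 0.37 with OR-2003 and 0.34 with OR-2100. Over all 25006 genes it was -0.12, -0.09 and -0.23, and over the 525 other ZNF genes 0.06, 0.14 and 0.12. All of these sets include genes not well above background, and medians without such genes are given below. The call was met by 1 of 34 members with each drug (2.94%). Among all genes it was met by 5.77% with DAC, 5.89% with OR-2003, 5.81% with OR-2100 and 5.27% with all 3 drugs, so the members' share was not above this background. Of the other 525 ZNF genes, 49 (9.33%), 51 (9.71%) and 52 (9.9%) met it. The mirror call, 2-fold lower from a level of at least -1 on mock, was met by 0 members with each drug, against 5.96% of all genes with DAC, 6.05% with OR-2003, 6.82% with OR-2100 and 5.21% with all 3.

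**Figure D1:**
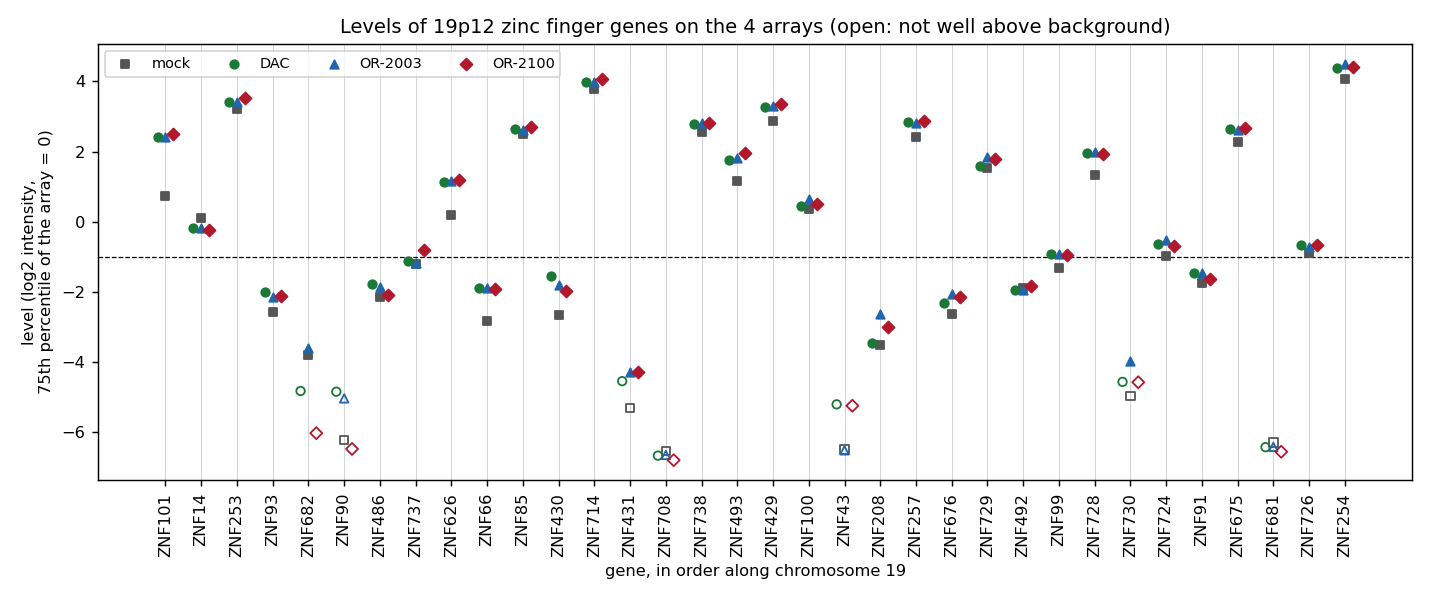
Level (log2 intensity, 75th percentile of each array = 0) of 34 zinc finger genes of 19p12 in their order along chromosome 19, with 1 point per array for mock, DAC, OR-2003 and OR-2100 and open points for spots under that mark. ZNF101 stands out as the gene whose drug points (2.42, 2.42 and 2.50) lie far above its mock point (0.73), while most other genes have all points close together.

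A second rule asked for a 2-fold difference and a probe well above background on the array with the higher value, since many zinc finger genes are dim. It called 2 members higher with DAC (ZNF101 and ZNF430), against 11.9% of all genes. It called 2 higher with OR-2003 and with OR-2100 (ZNF101 and ZNF431 each time), against 12.3% and 12%. With all 3 drugs it called only ZNF101, against 10.5%. Among other ZNF genes it called 110 with DAC (21%), 111 with OR-2003 (21.1%) and 112 with OR-2100 (21.3%). As lower it called ZNF682 with DAC (8.75% of all genes) and with OR-2100 (10.6%), and no member with OR-2003 (8.49%).

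ZNF101, the most distal member, was at 0.73 on mock, 2.42 with DAC, 2.42 with OR-2003 and 2.50 with OR-2100. All the drug arrays were far above mock and within 0.1 of each other. The differences were 1.69, 1.69 and 1.77, which are 3.24-fold, 3.22-fold and 3.41-fold. Its neighbour ZNF14 went the other way. It was at 0.10 on mock and at -0.17, -0.19 and -0.22 with the drugs in that order, differences of -0.27, -0.29 and -0.32 that did not meet either call. ZNF14 was the only one of the 27 genes measured on all arrays that was lower with all 3 drugs, a direction held by 56.4% of all genes so measured and by 176 of 405 other ZNF genes (43.5%).

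Among the 27 genes well above background on all arrays, those with the largest mean difference over the drugs after ZNF101 were ZNF626, ZNF66 and ZNF430. ZNF626 was at 0.20 on mock and at 1.13, 1.15 and 1.20 with the drugs in the same order, and its 1.9-fold and 1.93-fold differences with DAC and OR-2003 fell short of the call, as did the one just under 2-fold with OR-2100. ZNF66, the next member along the chromosome, was at -2.83 on mock and at -1.89, -1.88 and -1.91. All 3 drug arrays stood above mock by nearly the same amount in both genes. ZNF430 was at -2.66 on mock and at -1.55 with DAC, -1.79 with OR-2003 and -1.98 with OR-2100. Its differences of 1.11, 0.87 and 0.68 passed 2-fold with DAC alone, and there only by a little: with DAC it was 0.99 under median scaling, 0.96 under quantile normalization and 0.43 under normexp background correction. Under normexp the differences of ZNF66 were 0.24, 0.27 and 0.29, and those of ZNF626 0.78, 0.76 and 0.83. Other settings gave larger values. With the percentile taken over probes well above background only, they were 1.14, 1.16 and 1.15 for ZNF66 and 1.12, 1.15 and 1.22 for ZNF626. For ZNF430 they were 1.30, 1.07 and 0.90. Between ZNF66 and ZNF430 lies ZNF85, which was at 2.49 on mock and at 2.64, 2.62 and 2.69, with differences of only 0.15, 0.13 and 0.20. Members next to each other thus had differences of unlike size.

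The remaining genes called by the second rule were dim. ZNF431 was at -5.30 on mock and -4.54 with DAC, not well above background on either, and at -4.28 with OR-2003 and -4.29 with OR-2100. Set against the lowest level that was well above background on mock, this is at least 1.01-fold with OR-2003, and no fold can be given for OR-2100. ZNF682 was at -3.79 on mock and -3.59 with OR-2003, and not well above background with DAC (-4.82) and OR-2100 (-6.02), at least 1.55-fold and 1.7-fold lower. ZNF730 was well above background only with OR-2003, at -3.96, against -4.96 on mock, -4.56 with DAC and -4.57 with OR-2100, at least 1.25-fold higher. These 3 genes sit at the edge of detection, where spots differ most.

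**Figure D2:**
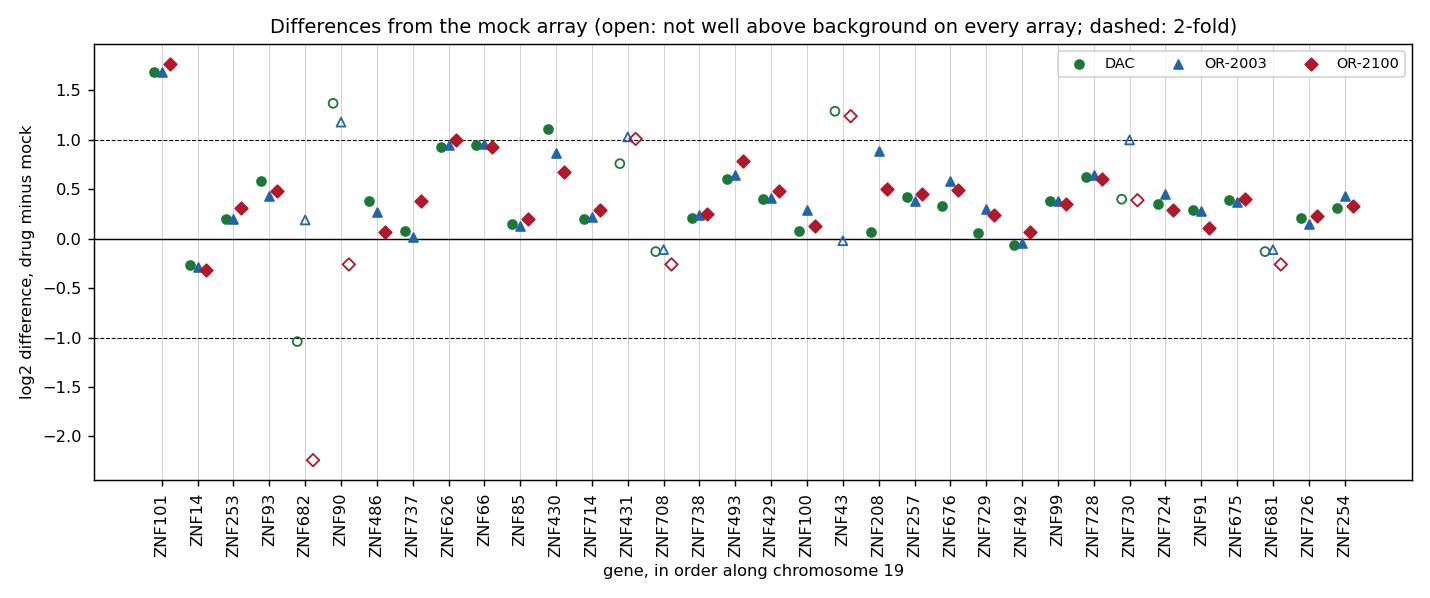
Log2 difference of each drug array from the mock array for 34 zinc finger genes of 19p12 in their order along chromosome 19, with dashed lines at 2-fold and open points for genes not well above background on every array. Filled points lie mostly between 0 and 0.5, with ZNF101 at 1.69 to 1.77 above them and ZNF14 at -0.27 to -0.32 below them.

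Among the 27 genes well above background on all 4 arrays the direction was nearly uniform and the size small. With DAC 25 of 27 were higher than on mock by any amount, against 38.4% of the 15977 genes so measured. With OR-2003 25 of 27 were higher (39%), and with OR-2100 26 of 27 (36.5%). The same 25 genes were higher with all 3 drugs, against 32.4% of all genes and 182 of 405 other ZNF genes (44.9%). The exceptions were ZNF14 and ZNF492, which was at -1.89 on mock and at -1.95, -1.93 and -1.82. The zero point depends on the scaling, and with arrays set to the same median only 16 of the 27 were higher with all 3 drugs. The median of all genes so measured was -0.18, -0.17 and -0.21 for the 3 drugs. A constant shift of an array moves this median too, but not the position of a gene relative to it. With every drug 26 of the 27 were above this median, against 43.8% of all genes and 227 of 405 other ZNF genes (56%). With DAC, with OR-2003 and with OR-2100 taken singly, the share of all genes was 50%, by construction.

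The medians of the 27 genes were 0.33 with DAC, 0.38 with OR-2003 and 0.35 with OR-2100, and those of the 405 other ZNF genes -0.01, 0.03 and 0. Averaged over the drugs, 19 of the 27 differed from mock by 0 to 0.5, 5 by 0.5 to 1, 1 by more than 1, and 2 were below 0. The interquartile range of this mean difference was 0.28 for the members, 0.95 for the other ZNF genes and 0.85 for all genes. Beyond 1 in either direction lay 1 of 27 members (3.7%), 82 of 405 other ZNF genes (20.2%) and 19.8% of all genes. Of the 17 members at -1 or more on every array, 12 were higher than mock by over 2 SD of spot noise with all 3 drugs, and of the 10 dimmer ones 2 were. ZNF14 was lower by over 2 SD with all 3. These counts were not made for all genes or for other ZNF genes, and they depend on the scaling. With the percentile taken over probes well above background only, ZNF14 differed from mock by just -0.07, -0.08 and -0.10.

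**Figure D3:**
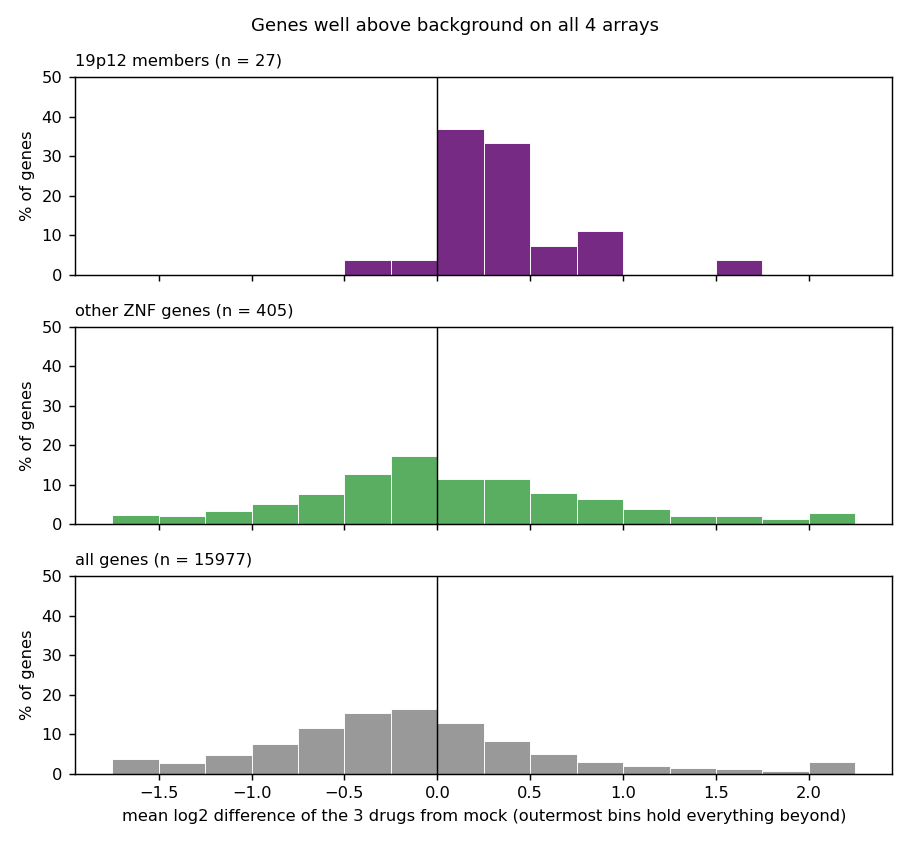
Share of genes (%) by mean log2 difference of the 3 drugs from mock for 27 members of 19p12, 405 other ZNF genes and all 15977 genes well above background on all 4 arrays; bins are 0.25 wide and the outermost hold everything beyond. The members pile up between 0 and 0.5 (19 of 27), while both other sets spread over negative and positive values.

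The 8 members with a level of 2 or more on mock were ZNF253, ZNF85, ZNF714, ZNF738, ZNF429, ZNF257, ZNF675 and ZNF254. All belong to the brighter class, at -1 or more, where spot noise was smallest, and their differences ran from 0.13 to 0.48. ZNF254 was at 4.07 on mock and at 4.38, 4.50 and 4.40 with the drugs. ZNF714 was at 3.77 on mock and at 3.97, 3.98 and 4.06. ZNF253 was at 3.22 and at 3.42, 3.42 and 3.54. In all of these 3 genes the drug arrays lay above mock by less than 0.5. ZNF429 was at 2.88 on mock and at 3.28, 3.29 and 3.36. ZNF257 differed from mock by 0.42, 0.38 and 0.45 and ZNF675 by 0.39, 0.37 and 0.40, and ZNF738 by 0.21, 0.24 and 0.25.

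At middle levels, ZNF493 was at 1.17 on mock and at 1.77, 1.82 and 1.96 with the drugs. ZNF728 was at 1.34 and at 1.95, 1.99 and 1.94. Both had differences of 0.60 to 0.79, under 2-fold. ZNF729 differed from mock by 0.06, 0.30 and 0.24, ZNF100 by 0.08, 0.29 and 0.13, ZNF724 by 0.35, 0.45 and 0.29, and ZNF726 by 0.21, 0.15 and 0.23. ZNF91, the SVA repressor, was at -1.75 on mock and at -1.46, -1.47 and -1.64, all within spot noise of mock for probes this dim. ZNF93, the LINE repressor, was at -2.58 and at -2.0, -2.15 and -2.10, differences of 0.58, 0.43 and 0.48. The other dim genes measured on all arrays were ZNF486 (0.38, 0.27 and 0.07), ZNF737 (0.08, 0.02 and 0.38), ZNF676 (0.33, 0.58 and 0.49), ZNF99 (0.38, 0.38 and 0.35) and ZNF208 (0.07, 0.89 and 0.50), given as differences with DAC, OR-2003 and OR-2100.

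Members with similar promoter windows had both like and unlike values. ZNF486 and ZNF626 (91.2% identity) had mean differences of 0.24 and 0.96, and ZNF486 and ZNF737 (86.8%) of 0.24 and 0.16. For ZNF714 and ZNF431 no such comparison can be made, since ZNF431 was not well above background on mock. Among the 27 genes ZNF101, with the largest difference, and ZNF14, with the lowest, both held the word TCCAATCAGG and both had many CG for this cluster.

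Other probes of the same genes did not always give the value of the chosen probe. Of the 18 other probes, 8 in 4 genes were well above background on all arrays, and 5 of these had the sign of the chosen probe with all 3 drugs. A second ZNF714 probe was at -0.58 on mock and at -0.73, -0.75 and -0.82 with the drugs, below mock where the chosen probe was above it. ZNF254 had 5 probes, and 1 of them was at -2.81 on mock and at -3.22, -3.20 and -3.87, so that with OR-2100 it was lower by 1.06. ZNF493 had a probe with differences of 0.04, 0.09 and 0.19 beside 0.60, 0.65 and 0.79 for the chosen one. Probes of 1 gene can match different transcripts, and small differences of single members rest on the probe chosen.

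DAC, OR-2003 and OR-2100 gave nearly the same values in this cluster at the same dose and time. Over the 27 genes the median of OR-2003 minus DAC was 0.007, of OR-2100 minus DAC 0.037 and of OR-2100 minus OR-2003 0.004, over 3 pairs of drugs. The median absolute differences were 0.035, 0.076 and 0.077, and those of all genes well above background 0.077, 0.11 and 0.111. In 23 of the 27 genes the 3 drug arrays lay within 0.25 of each other. This count was not made for all genes, so it cannot be called particular to the cluster. With 1 array per drug there is no interval for these differences, and small values do not show that the drugs act alike.

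The members that differed most between drugs were mainly dim. ZNF208 was at -3.52 on mock, -3.45 with DAC, -2.62 with OR-2003 and -3.01 with OR-2100, so that OR-2003 exceeded DAC by 0.82. ZNF430 was lower with OR-2100 than with DAC by 0.43 (-1.98 against -1.55). ZNF737 was at -1.19 on mock, -1.11 with DAC, -1.17 with OR-2003 and -0.81 with OR-2100. None of these passed 2-fold between drugs. Under the rule of 2-fold and a probe well above background on the array with the higher value, ZNF682 was called higher with OR-2003 than with DAC (0.776% of all genes, and 0.22% in the lower direction) and lower with OR-2100 than with OR-2003 (1.64%, with 0.372% higher). Both calls rest on values under background: against the lowest level well above background, OR-2003 was at least 1.77-fold above DAC and at least 1.94-fold above OR-2100. Under the same rule 0 members were called between OR-2100 and DAC, against 0.36% of all genes higher and 0.748% lower. ZNF90 and ZNF43 also differed between drug arrays by over 2-fold, but were not well above background on any array.

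**Figure D4:**
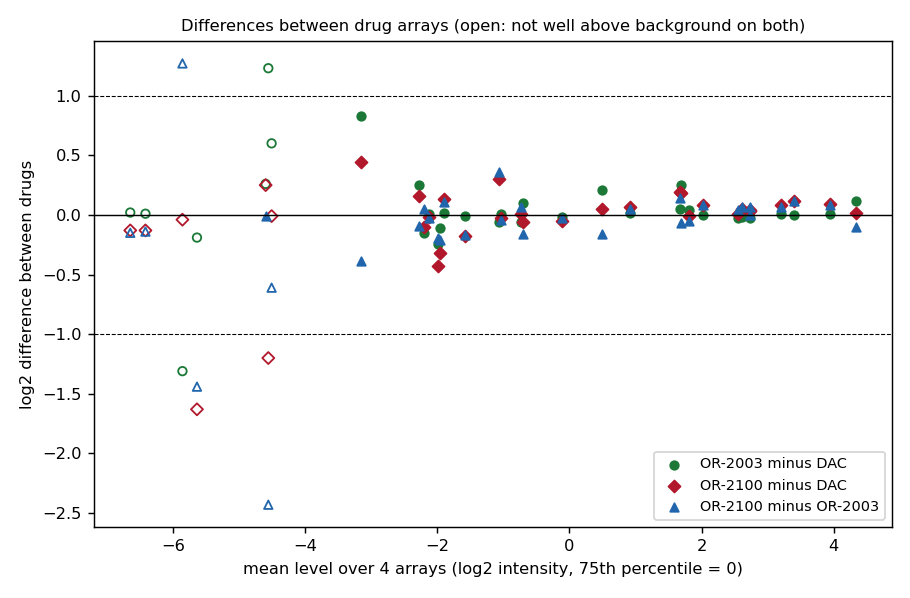
Log2 difference between drug arrays, for 3 pairs of drugs, against the mean level over the 4 arrays (log2 intensity, 75th percentile at 0) for 34 zinc finger genes of 19p12, with dashed lines at 2-fold and open points where either array missed the mark for signal over background. Genes with a level above 0 lie close to 0, and the wide points, such as ZNF208 with OR-2003 0.82 above DAC, are at low levels.

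The genes that flank the cluster were read in the same way. Of the 10 protein-coding genes other than ZNF genes nearest to it on the distal side, 8 were well above background on all arrays and 4 of these were higher with all 3 drugs, with medians of 0.02, 0.02 and 0.03. CILP2 differed from mock by 0.89, 1.05 and 1.07 and PBX4 by 0.69, 0.93 and 1.06. Inside the cluster the gene table lists 156 further genes, of which 98 are pseudogenes and 46 long noncoding RNAs. Of these, 16 had a probe and 8 were well above background on all arrays. Of these 8, 1 was higher with all 3 drugs, and their medians were -0.25, -0.31 and -0.28. Of the 10 nearest genes across the centromere, 7 were so measured, 5 were higher with all 3 drugs and the medians were 0.36, 0.19 and 0.21. With 7 or 8 genes a side, these values are descriptions.

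The partners through which KRAB zinc finger proteins silence chromatin were well above background, and their medians were near those of all genes well above background. All 26 listed partners were well above background on every array, with median differences of -0.21 with DAC, -0.21 with OR-2003 and -0.23 with OR-2100, against -0.18, -0.17 and -0.21 for all genes well above background. TRIM28 was at 5.32 on mock and at 5.10, 5.05 and 5.02. SETDB1 was at 4.74 and at 4.03, 4.03 and 4.0, and DNMT1, the maintenance methyltransferase that DAC traps, at 3.98 and at 3.68, 3.80 and 3.60. None of these met a 2-fold call. CBX5, which encodes HP1 alpha, fell with each drug, from 3.40 to 1.75, 1.77 and 1.71. CBX3, which encodes HP1 gamma, rose with DAC and OR-2003 by 1.05 and 1.00 and was higher by 0.76 with OR-2100. SUV39H1, another methyltransferase of the same histone residue, fell by 1.09 with OR-2100 and was lower by less than 2-fold with the others (-0.91 and -0.71). In all, 1 partner was called higher and 1 lower with DAC and with OR-2003, and 0 higher and 2 lower with OR-2100, of 26 partners. Over all genes the shares were 5.77%, 5.89% and 5.81% higher and 5.96%, 6.05% and 6.82% lower. Unlike the partners, all genes here include those not well above background, so the sets are not alike.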

How the data were processed

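Total RNA was labelled with Cy3 and hybridised to Agilent 1-colour arrays, 1 array per condition on 1 slide. The deposited values were spot intensities that the authors obtained with Feature Extraction 12.1.0.3 (background-subtracted processed signal), and the authors' series table held the same values. Per the file headers the array design follows hg19; RefSeq tables of GRCh38.p14 served for names, gene order and promoter windows. Control spots and spots marked as outliers were left out, leaving 58201 gene probes, of which 34892 were named as 25006 genes. The log2 of the deposited intensity was taken and the 75th percentile of each array set to 0, as in the study's methods. No gene spot was saturated.

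A call asked for a 2-fold difference and a level of -1, or, as a second rule, a probe well above background on the array with the higher value. For a probe not well above background the fold was a lower bound against the lowest level well above background on that array. No p-values were computed, since the number of arrays limits the precision. Members and lists were chosen with earlier results of these data known. Genes were named when called by either rule, when among the 4 highest in level or the 4 highest or lowest in mean difference, when among the 3 largest between drugs, or when another probe went the other way by 2-fold; all other members are given by their differences. Calling was tested on simulated data with 4-fold changes in brighter probes only, which does not cover the smaller differences and dimmer probes of most members. Alternatives were normexp (limma 3.58.1, R 4.3.3, offset 50, planned on mean signals but run on the median signals of the files used here), other scalings, a floor, other probes and other thresholds. Other steps used Python 3.11.15, numpy 2.4.6 and pandas 2.3.3. Protein sequences were not analysed here.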

Additional observations from a re-analysis of the deposited data

How the results depend on the processing

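No paired analysis was possible because a condition had only 1 array, and for the same reason no replicate could be left out. ZNF101 was called higher with each drug under every scaling tried, with differences of 1.49, 1.55 and 1.61 under normexp and 1.58, 1.47 and 1.68 under median scaling. At a 4-fold threshold 0, 0 and 0 members were raised with the 3 drugs (DAC, OR-2003, OR-2100 in this order throughout), 0 with all 3. Without a level threshold 4, 3 and 3 were raised and 1 (DAC) and 1 (OR-2100) lowered. Those raised included ZNF90 (DAC and OR-2003) and ZNF43 (DAC and OR-2100), which were well above background on no array. With the second rule 2, 2 and 2 were raised and 1 (DAC) and 1 (OR-2100) lowered. With OR-2100, 2 members were raised under quantile normalization and under the percentile of probes well above background. Apart from the second rule, these counts were not made for all genes, so they cannot be set against a background share. The median difference of the 34 genes with DAC, OR-2003 and OR-2100 was 0.150, 0.185 and 0.114 under normexp, 0.540, 0.575 and 0.562 under the percentile of probes well above background, and 0.225, 0.151 and 0.25 under median scaling. Median scaling also lowered 1 member with DAC and 1 with OR-2100 and gave medians of -0.092 for OR-2003 minus DAC and 0.102 for OR-2100 minus OR-2003. Raising dim values to a floor, the lowest level well above background, gave medians of 0.211 (DAC) and 0.297 (OR-2003). With OR-2100 the median was 0.222 when a gene's probes were averaged and 0.222 with the second probe, which gave -0.058 for OR-2100 minus DAC. Median scaling moved the median of all genes well above background from -0.18, -0.17 and -0.21 to -0.30, -0.39 and -0.30. Over all settings 34 differences in 9 of the 15 named genes changed sign. Those of ZNF431 did under normexp (-0.02, -0.04 and -0.02) and with the floor (-0.13 with DAC and -0.01 with OR-2100). With OR-2100, ZNF254 went to -0.09 when probes were averaged, and with the second probe ZNF714 went to -0.24 and ZNF737 to -0.26. The second probe of ZNF737 was well above background on no array. The other turned values belonged to ZNF682, ZNF253, ZNF492, ZNF85 and ZNF208. The number of the 27 genes higher with all 3 drugs was 23 under normexp, 16 under median scaling, 21 under quantile normalization and 22 with the mean of probes; the number above the median of all genes stayed at 25 or 26. The causes were not tested. Levels near the background limit, as for ZNF431, ZNF682 and ZNF730, are the least certain.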
